A study of Mus musculus with 6 samples.

Results

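The vascular leukocyte adhesion genes examined here are Vcam1, Icam1, Icam2, Pecam1, Sele, Selp, Vwf, Madcam1 and Alcam. The 9 genes were chosen by symbol from the 54752 genes of the count tables. RNA-seq was performed on the whole right hippocampus of male wild-type C57BL/6 mice (C57BL/6 J in the study's methods), for which the labels give an age of 14 weeks. The 3 BCAS mice carried microcoils around both common carotid arteries (bilateral carotid artery stenosis, a model of chronic cerebral hypoperfusion), with the tighter coil on the right, the side that was sampled. The 3 sham mice had the same operation without coils. Tissue was taken 3 weeks after surgery, and both groups were of the same strain and genotype. The comparison asks which adhesion transcripts of the hypoperfused hippocampus differ from those of sham mice.

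Circulating leukocytes leave the blood in steps. The selectins E-selectin (Sele) and P-selectin (Selp) on activated endothelium catch sugar-bearing ligands and let the cells roll, and the immunoglobulin-family proteins ICAM-1, ICAM-2, VCAM-1 and MAdCAM-1 then hold the integrins of the leukocyte. PECAM-1, at the junctions between endothelial cells, takes part in the passage through the wall. Von Willebrand factor (Vwf) tethers platelets and is stored with P-selectin in the Weibel-Palade bodies of endothelial cells, and ALCAM is the ligand of CD6 on T cells. In brain, resting endothelium is known for low levels of the selectins and of ICAM-1. Several of these genes are not restricted to vessels, since microglia and astrocytes can express Icam1, astrocytes and choroid plexus can express Vcam1, and neurons express Alcam.

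Libraries held 29652456 to 35607098 counts. Levels are given as CPM, the usual depth-scaled count, here divided by library totals after TMM scaling, which corrects for differences in composition between libraries. A count of 3 in a library corresponded to 0.0874 to 0.0994 CPM and was taken as the limit of detection. It covers counting error alone, and since both mates of a fragment were counted, counts are not independent molecules and this limit is too low. Neuron markers were detected in every library, with a summed level of 9296 to 9881 CPM in sham and 4768 to 6996 CPM in BCAS libraries. All 15 endothelial markers were detected too. Choroid plexus markers ran unevenly through both groups, with a summed level of 71.1 to 4089 CPM in sham and 40.9 to 5938 CPM in BCAS libraries. P values measure the spread between these 6 mice.

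Of the 9 adhesion genes, Icam1, Vwf and Vcam1 rose in BCAS mice past both thresholds of the study, an adjusted p under 0.05 and a log2 fold change above 1 (differentially expressed genes, DEGs). Pecam1 rose by a smaller amount. Icam2, Madcam1 and Alcam did not pass the test, and Sele and Selp had too few counts to be tested. The members therefore gave 3 DEGs among 7 tested, beside 8.47% of all 18617 tested genes, and 4 of 7 were higher at an adjusted p under 0.05, beside 18.0% of all tested genes. None was lower, beside 13.2%, and none was at an unadjusted p under 0.05 or with DESeq2 or limma-voom. The median log2 fold change of the 7 tested members was 1.09, beside 0.02 over all tested genes, and leaves out the 2 selectin genes. It was 0.81 without Madcam1, which was tested only because of its BCAS libraries. Bulk RNA cannot tell a change in the number of vessel cells from a change in RNA per cell.

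**Figure D1:**
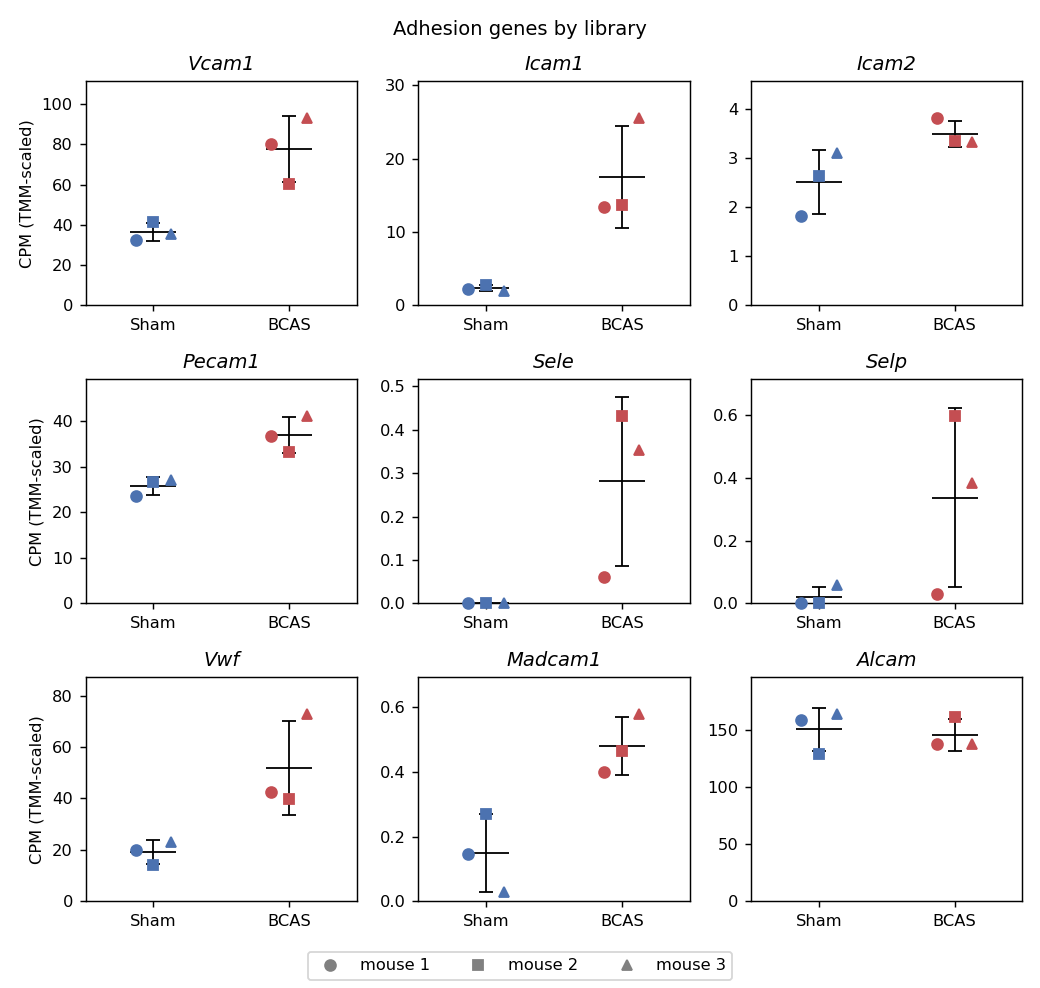
CPM of each adhesion gene (vertical axis, TMM-scaled, linear from 0) in the 3 sham (blue) and 3 BCAS (red) libraries, with symbols for the mouse number within a group (no pairing across groups) and lines with bars for the mean ± SD (n = 3). Icam1, Vwf and Vcam1 lie well above sham in all 3 BCAS libraries, Sele and Selp are near 0 in BCAS mouse 1, and the groups overlap for Alcam.

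Icam1 encodes ICAM-1, the endothelial ligand of the leukocyte integrins LFA-1 and Mac-1. The gene (ENSMUSG00000037405.8) lies on chr9:21015985-21028817 of mm10, plus strand. It was at 2.27, 2.75 and 2.01 CPM in sham mice 1 to 3 and at 13.3, 13.6 and 25.5 CPM in BCAS mice 1 to 3. The lowest BCAS mouse was far above the highest sham mouse, and BCAS mouse 3 stood above the other 2. The mean rose from 2.34 ± 0.38 to 17.5 ± 6.92 CPM (SD, n = 3), a log2 fold change of 2.90 with an SE of 0.28 and a 95% interval of 2.26 to 3.53 (edgeR quasi-likelihood test, adjusted p = 1.4e-04). The antisense gene Gm47079 shares 511 of the 4360 exonic bases of Icam1, and counting without strand cannot tell reads of the shared bases apart. Counts given to Gm47079 itself were 21 to 38 in sham and 15 to 31 in BCAS libraries, against 69 to 92 and 411 to 795 for Icam1.

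The promoters of Icam1, the member with the largest tested change, and of Sele, which had counts in BCAS mice alone, are shown because both genes are textbook targets of inflammatory transcription factors. RefSeq sequences of GRCm38.p6 were held for 5 members, Icam1, Sele, Selp, Madcam1 and Alcam. The 250 bases before the RefSeq start of Icam1 (chr9:21015690-21015939, plus strand) and of Sele (chr1:164047984-164048233, plus strand) follow 5′ to 3′, with motif matches in capitals. The RefSeq start of Icam1 lies before the gene start of the count tables, and that of Alcam lies inside the counted gene.
Icam1: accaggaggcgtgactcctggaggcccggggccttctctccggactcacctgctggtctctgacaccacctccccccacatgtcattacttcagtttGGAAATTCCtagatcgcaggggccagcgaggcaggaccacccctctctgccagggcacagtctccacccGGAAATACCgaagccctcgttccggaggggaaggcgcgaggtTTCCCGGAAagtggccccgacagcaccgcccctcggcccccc
Sele: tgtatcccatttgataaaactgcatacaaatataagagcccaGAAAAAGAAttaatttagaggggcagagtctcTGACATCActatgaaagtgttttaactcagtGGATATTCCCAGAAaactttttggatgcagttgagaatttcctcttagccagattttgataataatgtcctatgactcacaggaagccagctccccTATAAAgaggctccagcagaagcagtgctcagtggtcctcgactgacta
Motifs were searched on both strands, and positions count back from the start to the first base of the match. The core GGNNNTTCC, a short form of the NF-kappa B site, was found in the Icam1 promoter at 153 and 84 bases before the start, and the core TTCNNNGAA, a short form of the STAT site, at 42 bases. The Sele promoter held GAAANNGAA (interferon response core) at 208 bases, TGACNTCA (ATF and CREB core) at 176, GGNNNTTCC at 145, TTCNNNGAA at 140 and TATAAA at 49, and the matches at 145 and 140 overlap. The core GGNNNTTCC was also found in Madcam1 at 83 and 70 bases and in Selp at 14 bases. None of the 5 motifs was found in the window of Alcam (chr16:52453082-52453331, minus strand), which is not upstream of the start in the count tables. Of all 32851 promoters with windows of this length, 15.7% held GGNNNTTCC, 7.02% TTCNNNGAA, 7.13% GAAANNGAA, 7.49% TGACNTCA and 12.4% TATAAA. Such matches are letters in a window and were not tested as sites.

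Vcam1 encodes VCAM-1, the ligand of integrin α4β1 on lymphocytes and monocytes. The gene (ENSMUSG00000027962.14) lies on chr3:116109949-116129688, minus strand. Sham mice 1 to 3 had 32.5, 41.6 and 35.4 CPM, and BCAS mice 1 to 3 had 80.3, 60.2 and 92.9 CPM. No BCAS mouse overlapped the sham mice, and BCAS mouse 2 was the closest to them. The mean rose from 36.5 ± 4.64 to 77.8 ± 16.5 CPM (SD, n = 3), with a log2 fold change of 1.09, an SE of 0.16 and a 95% interval of 0.74 to 1.45 (edgeR, adjusted p = 0.0012). The estimate lies close to the fold threshold, and without BCAS mouse 3 it was 0.94 and no longer counted as a DEG. In the same libraries Ttr, the transthyretin gene of choroid plexus, was at 882, 3770 and 38.0 CPM in sham and at 5455, 23.6 and 2927 CPM in BCAS mice. With log2 CPM of Ttr as a covariate, an alternative chosen after seeing the data, the log2 fold change of Vcam1 was 1.05 (edgeR, adjusted p = 1.8e-04), and that of Icam1 was 2.86 (adjusted p = 6.1e-05). The part of choroid plexus in the rise of Vcam1 was not tested. The antisense gene Gm43109 shares 61 of the 8870 exonic bases of Vcam1 and had 0 or 1 counts in each library.

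Vwf, the gene of von Willebrand factor (ENSMUSG00000001930.17), lies on chr6:125546774-125686679, plus strand. Its level was 20.2, 14.0 and 23.0 CPM in sham mice and 42.6, 39.8 and 72.7 CPM in BCAS mice. All BCAS mice were above all sham mice, and BCAS mouse 3 was again the highest. The mean was 19.1 ± 4.61 CPM in sham and 51.7 ± 18.2 CPM in BCAS mice (SD, n = 3), a log2 fold change of 1.44 with an SE of 0.25 and a 95% interval of 0.87 to 2.01 (edgeR, adjusted p = 0.0033). Von Willebrand factor is made by megakaryocytes as well as endothelium. Of the 7 platelet and megakaryocyte markers, 3 could be tested and none passed with edgeR, DESeq2 or limma-voom, 1 had an unadjusted edgeR p under 0.05, and the summed level of the list was 3.59 to 4.49 CPM in sham and 5.04 to 7.11 CPM in BCAS libraries. Itga2b, the integrin chain of the platelet fibrinogen receptor, was at 1.97 against 2.35 CPM, the chemokine gene Pf4 at 1.07 against 1.74 CPM and Gp1ba, part of the platelet receptor for von Willebrand factor, at 0.531 against 1.17 CPM. Without BCAS mouse 2, Gp1ba passed with a log2 fold change of 1.41 (edgeR, adjusted p = 0.039). Gp1bb and Gp6 did not exceed 3 counts in any library. The part of platelet RNA in the rise of Vwf was not tested.

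Pecam1 (ENSMUSG00000020717.19, chr11:106654217-106750628, minus strand) was at 23.6, 26.6 and 27.1 CPM in sham and at 36.6, 33.2 and 41.0 CPM in BCAS mice. The groups did not overlap, though the change was small beside that of Icam1. The mean rose from 25.8 ± 1.91 to 36.9 ± 3.93 CPM (SD, n = 3), a log2 fold change of 0.52 with an SE of 0.11 and a 95% interval of 0.28 to 0.76 (edgeR, adjusted p = 0.0070). The interval lies below the fold threshold of the DEGs. Icam2 (ENSMUSG00000001029.15, chr11:106377656-106388075, minus strand), a ligand of LFA-1 present on resting endothelium, was at 1.83, 2.63 and 3.12 CPM in sham and at 3.81, 3.35 and 3.33 CPM in BCAS mice. Every BCAS value was above every sham value, but sham mouse 3 came close to them. The log2 fold change of Icam2 was 0.47 with an SE of 0.24 and a 95% interval of -0.07 to 1.01, which did not pass (edgeR, adjusted p = 0.17).

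Alcam (ENSMUSG00000022636.13, chr16:52248996-52454074, minus strand) was at 158, 129 and 164 CPM in sham and at 138, 161 and 137 CPM in BCAS mice. The groups overlapped, and this gene had the highest CPM per length of the members. The log2 fold change was -0.05 with an SE of 0.11 and a 95% interval of -0.29 to 0.20 (edgeR, adjusted p = 0.77), an interval that does not reach a change of 1 on the log2 scale in either direction. Its sign turned when library totals replaced TMM scaling (0.027) and when sham mouse 3 was left out (0.014).

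The selectins were at or near the limit of detection. Sele (ENSMUSG00000026582.6, chr1:164048234-164057677, plus strand) had 0 counts in all 3 sham libraries and 2, 13 and 11 counts in BCAS mice 1 to 3. The BCAS mean was 0.281 ± 0.194 CPM (SD, n = 3), and BCAS mouse 1 itself was under 3 counts. Selp (ENSMUSG00000026580.16, chr1:164115264-164150026, plus strand) had 0, 0 and 2 counts in sham and 1, 18 and 12 counts in BCAS mice. Sham mouse 3 thus exceeded BCAS mouse 1. Every sham library was under 3 counts, and the 2 sham counts may be 1 fragment because mates were counted apart, so no fold is given. The antisense genes Gm16587 and Gm16548 share 186 and 438 of the 4413 exonic bases of Selp and had 0 to 2 counts in each library. Both selectins fell below the filter on low counts. With every gene of at least 1 count in the fit, the edgeR test called both (adjusted p = 0.0078 for Sele and 0.027 for Selp). Sele entered that fit through its BCAS counts alone, and Selp with 2 sham counts. Without BCAS mouse 1 both passed the filter, through the BCAS libraries that were left, and were called (adjusted p = 0.012 and 0.015). The calls of both settings are therefore no support for a rise. Without sham mouse 2 the adjusted p was 0.0499 for Sele and 0.13 for Selp. Without sham mouse 1 they were 0.059 and 0.14, and without sham mouse 3 they were 0.058 and 0.077. In these fits too both genes passed the filter through their BCAS libraries, so the values are no support for a rise.

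Madcam1 encodes MAdCAM-1, the ligand of integrin α4β7 known from gut vessels and choroid plexus. The gene (ENSMUSG00000020310.9) lies on chr10:79664559-79668537, plus strand. It had 5, 9 and 1 counts in sham and 13, 14 and 18 counts in BCAS mice, which is 0.147, 0.269 and 0.029 CPM against 0.400, 0.464 and 0.576 CPM. The lowest BCAS mouse was above the highest sham mouse, and the gene passed the filter on low counts through its BCAS libraries. The log2 fold change of 1.67 had an SE of 0.63 and a 95% interval of 0.24 to 3.10, and did not pass after adjustment (edgeR, adjusted p = 0.075). Of the 7 tested members, 6 had every BCAS library above every sham library, beside 25.3% of all tested genes, and without Madcam1 they were 5 of 6. BCAS mouse 3 held the highest level of 5 of the 9 members, BCAS mouse 2 of 2, BCAS mouse 1 of 1 and sham mouse 3 of 1.

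The order of levels between the members was compared per length, as CPM per kilobase of exon. In sham mice Alcam was the highest at 21.1 ± 2.60, followed by Pecam1 at 4.14 ± 0.31, Vcam1 at 4.11 ± 0.52, Icam2 at 1.33 ± 0.34, Vwf at 1.19 ± 0.29, Icam1 at 0.538 ± 0.086 and Madcam1 at 0.103 ± 0.084 (SD, n = 3). Selp at 0.0044 and Sele at 0 closed the order. Pecam1 and Vcam1 overlapped in their range, as did Icam2 and Vwf and the selectins. In BCAS mice the order was Alcam at 20.4 ± 1.93, Vcam1 at 8.77 ± 1.86, Pecam1 at 5.93 ± 0.63, Icam1 at 4.01 ± 1.59, Vwf at 3.22 ± 1.14, Icam2 at 1.84 ± 0.14, Madcam1 at 0.334 ± 0.062, Sele at 0.0967 ± 0.067 and Selp at 0.0764 ± 0.065. Icam1 thus stood below Icam2 in every sham mouse and above it in every BCAS mouse. In BCAS the range of Icam1 overlapped those of its neighbours Pecam1 and Vwf, and the selectins overlapped each other.

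**Figure D2:**
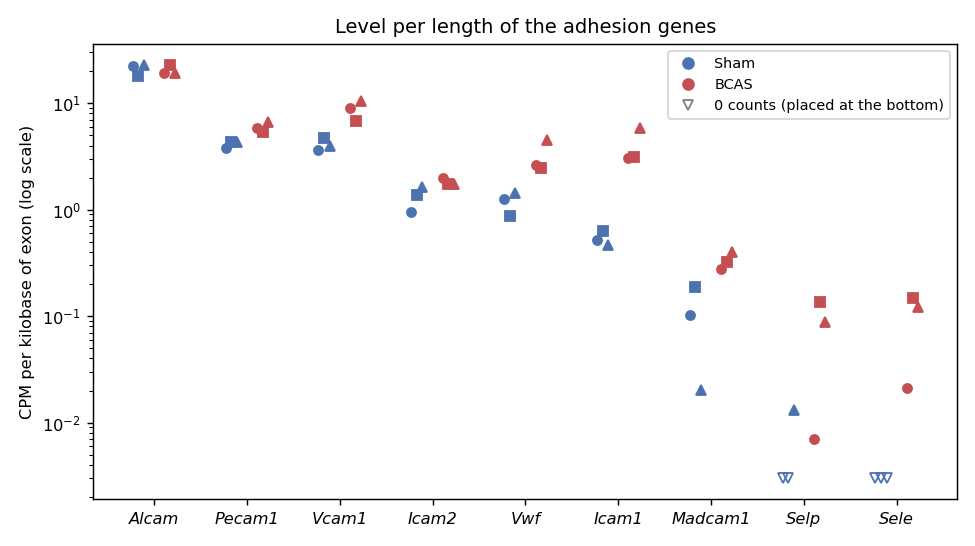
Level of each adhesion gene per kilobase of exon (vertical axis, CPM per kilobase, log scale) in sham (blue) and BCAS (red) libraries, ordered by the sham mean. Open triangles at the lower edge mark libraries with 0 counts and are not at a measured height, and the BCAS points of Icam1 lie at 3.06 to 5.84 where its sham points lie at 0.461 to 0.631.

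Each member was set against endothelial markers within each library. Of the 15 markers, 7 rose at an adjusted p under 0.05, none was a DEG with edgeR, DESeq2 or limma-voom, also at an unadjusted p, and 8 did not pass, with a median log2 fold change of 0.41. Over all tested genes 18.0% rose and 8.47% were DEGs up. Cdh5 became a DEG with library totals (1.06) and without sham mouse 3 (1.04). The 3 with the highest CPM were the glucose transporter Slc2a1 (68.2 against 92.4 CPM), the organic anion transporter Slco1a4 (65.1 against 86.6 CPM) and the VEGF receptor Flt1 (63.3 against 95.7 CPM), and all 3 rose. The mean log2 CPM of the list was 4.56 ± 0.04 in sham and 4.96 ± 0.14 in BCAS mice (SD, n = 3), a difference of 0.40. Relative to this mean, Icam1 was higher in BCAS mice by 2.41 log2 units, Sele by 1.85, Madcam1 by 1.14, Vwf by 1.01 and Vcam1 by 0.68. For these 5 members every BCAS mouse was above every sham mouse, and each had p = 0.1 in a two-sided exact permutation test, the smallest value that 3 against 3 can give. For Sele this separation rests on 2 counts in BCAS mouse 1, under the limit of detection, against 0 in sham mice. Sele was not among the tested genes and Madcam1 was tested through its BCAS libraries, so that 3 of the other 6 tested members remained above sham, beside 11.2% of all tested genes on the same measure. Pecam1 differed by 0.12 (exact permutation p = 0.2) and Icam2 by 0.09 (p = 0.8), beside SDs of 0.09 and 0.36 among the sham mice, and the groups overlapped. Selp was higher by 1.57 and Alcam was at -0.44, with overlapping mice (exact permutation p = 0.2 for both). Leaving out 1 mouse moved Madcam1 to 0.63 without sham mouse 3, Sele to 1.40 without BCAS mouse 2 and to 2.50 without BCAS mouse 1, Selp to 0.93 and to 2.44 without the same mice, and Icam2 to values from -0.10 without sham mouse 1 to 0.26 without sham mouse 3. It moved Pecam1 to 0.07 without sham mouse 1. The 9 tests cannot pass 0.05 at this size, before or after adjustment. The values of Sele and Selp depend on the prior count of 2 added before the logarithm and are no bound on a fold, and for Sele the difference was 3.52 with a prior count of 0.5.

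**Figure D3:**
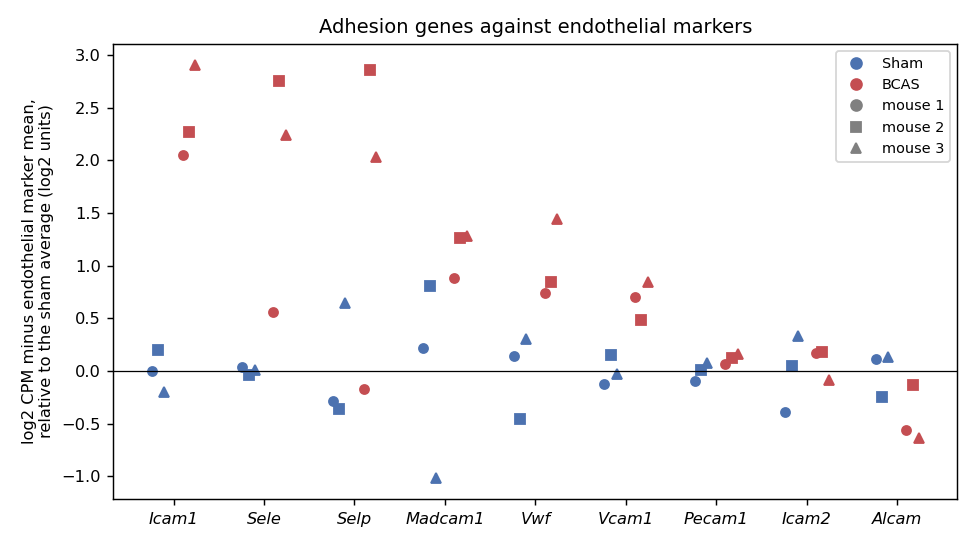
Log2 CPM of each adhesion gene minus the mean log2 CPM of 15 endothelial markers in the same library, with the sham average of that gene set to 0 (vertical axis, log2 units). Blue points are sham and red points BCAS libraries, symbols mark the mouse, and at this prior count of 2 Icam1 has a group difference of 2.41 while Pecam1 and Icam2 lie near 0 (with a prior count of 0.5 Sele is at 3.52 and Selp at 2.72, above Icam1 at 2.43).

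The leukocyte side of these contacts was read from 12 counter-receptor genes. Of the 11 tested, 9 rose, beside 18.0% of all tested genes, and 8 of them were DEGs, beside 8.47%. The other 2 did not pass, and the median log2 fold change was 2.33. Of the 11, 2 genes, Spn and Cd6, passed the filter through their BCAS libraries. The call of Spn is therefore no support for the list, although the counts and the median include both genes. The largest changes included integrin chains that bind ICAM-1. Itgax, the αX chain, rose from 0.532 ± 0.057 to 39.6 ± 4.06 CPM (log2 fold change 6.21), Itgb2, the shared β2 chain, from 4.68 ± 0.79 to 81.3 ± 27.6 CPM (4.12) and Itgam, the αM chain of Mac-1, from 6.33 ± 0.89 to 51.1 ± 19.4 CPM (3.01). Cd44, a hyaluronan receptor that can carry selectin ligands, rose from 6.61 ± 1.64 to 46.6 ± 9.58 CPM (2.82). The αL chain of LFA-1, Itgal, rose by 2.33 on the log2 scale and Selplg, the P-selectin ligand, by 2.04. The β7 chain of the MAdCAM-1 receptor, Itgb7, was a DEG as well, at 0.718 against 2.65 CPM. The α4 chain shared by the receptors of VCAM-1 and MAdCAM-1, Itga4, did not pass and was at 27.5 against 22.4 CPM (edgeR, adjusted p = 0.11). The β1 chain of the VCAM-1 receptor, Itgb1, rose from 74.1 to 143 CPM (log2 fold change 0.94, edgeR, adjusted p = 3.9e-04). Cd6, the partner of ALCAM, did not pass either, at 0.584 against 1.15 CPM (adjusted p = 0.19). Several of these genes are expressed by microglia, and Itgam stands in the microglia list too.

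Markers of other cells moved in the same libraries. All 7 microglia markers were DEGs up, beside 8.47% of all tested genes. Their median log2 fold change was 2.73, with a summed level of 275 to 285 CPM in sham and 1394 to 2241 CPM in BCAS mice. Csf1r, the receptor of colony-stimulating factor, was at 86.4 against 515 CPM and the fractalkine receptor gene Cx3cr1 at 49.6 against 328 CPM. All 6 astrocyte markers rose, beside 18.0% of all tested genes, 2 of them as DEGs, from a summed 3551 to 3917 CPM to 8365 to 8988 CPM. Of the 3 with the highest CPM, Gfap was at 375 against 3674 CPM, Slc1a3 at 581 against 911 CPM and Slc1a2 at 2307 against 3063 CPM. The part of microglia and astrocytes in the rise of Icam1 and Vcam1 was not tested. All 7 neuron markers fell, beside 13.2% of all tested genes, none as a DEG, with a median log2 fold change of -0.69. Camk2a, with the highest CPM, was at 3290 against 2020 CPM, Snap25 at 2144 against 1323 CPM and Syt1 at 1794 against 1217 CPM.

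Of the leukocytes that use these receptors, T cells left a low signal. All 6 T cell markers were tested and 5 were DEGs up, beside 8.47% of all tested genes. Of the 5, 4 (all but Trac) had passed the filter on low counts through their BCAS libraries, so that the count is no support for the list. The list had a summed level of 0.649 to 1.84 CPM in sham and 7.38 to 7.59 CPM in BCAS mice. Trac, a T cell receptor gene, was at 0.785 against 2.28 CPM, Cd8a at 0.0987 against 2.18 CPM and Cd3g at 0.0784 against 0.909 CPM. No neutrophil marker passed. Of 7 markers 1 was tested and did not pass with edgeR (also at an unadjusted p), DESeq2 or limma-voom, the sum was 0.658 to 2.62 CPM in sham and 0.984 to 2.58 CPM in BCAS mice, Ly6g had 0 counts in every library and Elane did not exceed 3. The calcium-binding proteins S100a9 and S100a8 were at 0.439 against 1.05 CPM and 0.147 against 0.705 CPM, and the granule gene Ngp at 0.489 against 0.041 CPM. S100a8, which the main filter removed, was a DEG without BCAS mouse 1 (edgeR, adjusted p = 0.016) and with every gene of at least 1 count (adjusted p = 0.024). In the first of these fits it passed the filter through the BCAS libraries that were left, and in the second that filter was lifted. Both calls are therefore no support for the list.

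Among 13 other endothelial adhesion and junction genes, 12 were tested, 8 rose, 2 of these as DEGs, and 4 did not pass, with a median log2 fold change of 0.58. For this list and the next, the shares over all tested genes were 18.0% higher and 8.47% DEGs up. Glycam1, a mucin-like ligand of L-selectin, rose from 0.109 ± 0.063 to 3.24 ± 0.96 CPM (log2 fold change 4.85), and passed the filter on low counts through its BCAS libraries. Its call is therefore no support for the list, although the counts and the median include it, and F11r was the other DEG. F11r, the junctional protein JAM-A, rose from 8.65 to 12.5 CPM in sham mice to 36.4 to 50.8 CPM in BCAS mice (2.09). The part of cells other than endothelium in the rise of F11r was not tested. Cdh5, the cadherin of endothelial junctions, and Cd34, a sialomucin of endothelium, rose by 0.98 and 0.84 on the log2 scale, and Icam4 had 0 counts in every library. Cdh5 is also one of the endothelial markers. Of 8 genes for Weibel-Palade cargo and for enzymes that cleave von Willebrand factor or shed adhesion proteins, 6 rose, 4 as DEGs, and 2 did not pass, with a median of 0.75. Cd63, a tetraspanin of these granules and of lysosomes in most cells, rose by 1.56 on the log2 scale, the sheddase gene Adam17 by 1.41, Angpt2, the ligand of the receptor Tie2, by 1.10 and Igfbp7 by 1.08. Without sham mouse 1, or without BCAS mouse 3, the list held 2 DEGs.

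Cytokines, their receptors and NF-kappa B genes, which act upstream of several adhesion genes in endothelium, were higher in BCAS mice. All 15 were higher at an adjusted p under 0.05, beside 18.0% of all tested genes. DEGs were 10 of them, beside 8.47% of all tested genes, and the median log2 fold change was 1.66. Of the 15, 2 genes, Tnf and Il1b, passed the filter through their BCAS libraries. Their calls are therefore no support for the list, although the counts and the median include them. The cytokine gene Il1a was at 0.570 ± 0.089 against 4.60 ± 2.06 CPM (log2 fold change 3.00) and Il1b at 0.393 ± 0.247 against 2.12 ± 1.46 CPM (2.42). Il1b was at 0.430 CPM in BCAS mouse 1, within the sham values of 0.239 to 0.678 CPM, and at 2.88 and 3.04 CPM in BCAS mice 2 and 3. BCAS mouse 1 was also the lowest BCAS library for both selectins, and for Il1a, Tnf, S100a8 and S100a9 among others, so this likeness is not particular to Il1b. The TNF receptor gene Tnfrsf1b was at 4.52 ± 0.78 against 32.5 ± 7.07 CPM (2.85), and Il4ra, a chain of the interleukin-4 receptor, at 4.58 to 6.88 CPM against 19.4 to 33.0 CPM (2.18).

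Pericytes and meningeal fibroblasts, the other cells of the vessel wall and its surroundings, were read from 2 further lists. Beside their counts, 18.0% of all tested genes were higher and 8.47% were DEGs up. Of 7 pericyte markers 6 rose, 1 as a DEG, with a median log2 fold change of 0.73 and a summed level of 293 to 330 CPM in sham and 410 to 468 CPM in BCAS mice. Rgs5, with the highest CPM, was at 148 against 163 CPM and did not pass, while Vtn (85.3 against 142 CPM) and Pdgfrb (35.2 against 55.3 CPM) rose. The pericyte list held 2 DEGs without BCAS mouse 1 and 0 without BCAS mouse 3. Of 6 meningeal fibroblast markers 3 rose, 2 as DEGs, with a summed level of 147 to 241 CPM in sham and 242 to 381 CPM in BCAS mice. Dcn at 74.1 against 89.1 CPM and Pdgfra at 63.6 against 71.7 CPM did not pass, and Col1a2 at 22.8 against 65.2 CPM was a DEG. The part of other cells in the levels of Pdgfra and of the pericyte marker Cspg4, which enter these sums, was not tested. None of the 6 choroid plexus markers passed with edgeR (also at an unadjusted p), DESeq2 or limma-voom (Ttr at 1563 against 2802 CPM, Kl at 95.6 against 149 CPM and Clic6 at 34.5 against 63.5 CPM), although their median log2 fold change was 0.97. The part of pericytes and fibroblasts in the rise of Vcam1 was not tested.

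**Figure D4:**
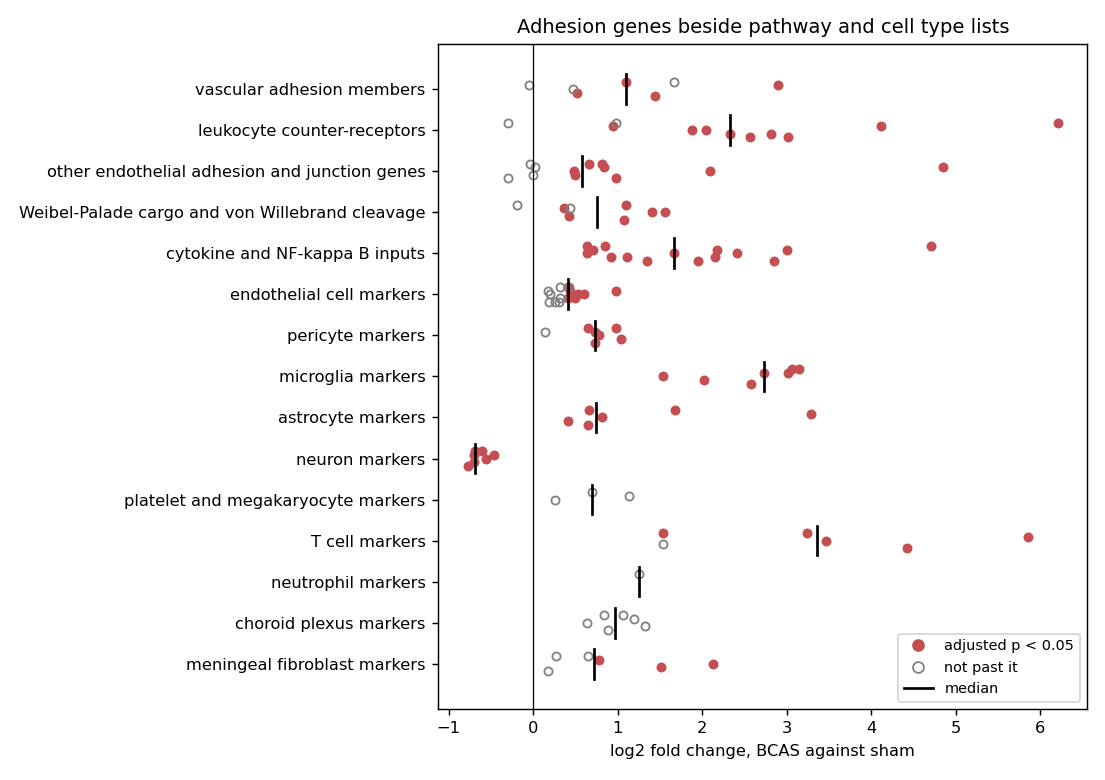
Log2 fold change, BCAS against sham (horizontal axis), of every tested gene in the adhesion list and in 14 pathway and cell type lists (rows). Red points passed an adjusted p of 0.05, open points did not, black bars are medians, genes that were not tested are left out, and the median of the tested adhesion genes is 1.09 (0.81 without Madcam1), that of the endothelial markers 0.41 and that of the microglia markers 2.73.

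The genes whose levels followed those of 3 members most closely were sought over the 6 libraries by the root mean square difference of log2 CPM after centring each gene. Closest to Vcam1 were Nt5dc1 (difference 0.053 log2 units), Plekhg2 (0.070) and Tnfsf10, the gene of the death ligand TRAIL (0.081). Closest to Icam1 were H2-T23, a non-classical class I histocompatibility gene (0.068), the peptide transporter gene Tap1 (0.115) and Ang, the gene of angiogenin (0.118). Closest to Pecam1 were Cyb5r3, a cytochrome b5 reductase (0.038), the sorbitol dehydrogenase gene Sord (0.042) and 1810058I24Rik (0.045). The points share libraries and groups, and no test was made of the likeness.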

How the data were processed

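Hippocampal RNA-seq libraries of 3 sham and 3 BCAS mice were grouped and numbered by the labels. The columns inside the BCAS tables carry the numbers 2 to 4, so BCAS mice 1 to 3 here follow the titles alone. The authors trimmed reads with Trim Galore, aligned to mm10 with HISAT2 and deposited raw featureCounts counts without normalization. Per the file headers, each mate gave its own count, no strand setting was used, the annotation was GENCODE vM20 and the featureCounts version was 2.0.3, whereas the submitters' processing notes name 1.6.3. The deposited gene lengths served for levels per kilobase. Symbols were found for 54723 of 54752 genes.

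Genes kept by filterByExpr were compared with edgeR 4.0.16 in R 4.3.3 (TMM, quasi-likelihood test, Benjamini-Hochberg adjustment over 18617 genes). The SE was the log2 fold change divided by the square root of F. Log2 CPM used a prior count of 2. Steps were tested on simulated data. Named genes were all members, up to 4 of the largest changes per pathway list with an adjusted p under 0.05 and at least 1 CPM, genes at 3 counts or fewer in every library, the 3 most abundant genes of each cell type list, and the 3 nearest profiles, and further list genes were chosen after their values were seen. A marker that this rule names is not reported here. Members and lists were chosen with earlier results of these data known. Alternatives were DESeq2 1.42.0, limma-voom 3.58.1, RLE factors, library totals, 2 other filters, a replicate block, the Ttr covariate and leaving out each mouse.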

Additional observations from a re-analysis of the deposited data

How the results depend on the processing

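The count of 3 DEGs among the adhesion genes was the same with DESeq2, limma-voom, RLE factors, library totals, a filter at a mean of 10 counts, the replicate block and the Ttr covariate. It was 5 with every gene of at least 1 count, where Sele and Selp joined on 0 and 2 sham counts and give no support for a rise. Leaving out 1 mouse gave 2 to 5. It was 5 without BCAS mouse 1, where Sele and Selp joined likewise, and 2 without BCAS mouse 3, where Vcam1 fell below the fold threshold. Without sham mouse 2 it was 4, where Sele joined with 0 sham counts, which is no support for a rise. The count higher at an adjusted p under 0.05 was 4 to 6 over these alternatives. The log2 fold change ran from 2.52 to 3.06 for Icam1, from 1.11 to 1.59 for Vwf, from 0.94 to 1.24 for Vcam1, from 0.43 to 0.60 for Pecam1 and from 1.19 to 2.39 for Madcam1, whose adjusted p stayed at 0.052 to 0.21. Alcam changed sign with library totals (0.027) and without sham mouse 3 (0.014), and leaving out 1 mouse gave -0.15 to 0.014. Library totals moved the median of all genes from 0.02 to 0.09 on the log2 scale. With library totals the endothelial list held 1 DEG and the pericyte list 2, and without sham mouse 3 the endothelial list held 1. Without BCAS mouse 2 the platelet list held 1 DEG. Without BCAS mouse 1 the neutrophil list held 1, S100a8, which joined through its BCAS libraries and gives no support for the list. The members above every sham mouse relative to endothelial markers numbered 5 to 7, with 7 where sham mouse 3 or BCAS mouse 1 was left out, which makes an overlap less likely. Shared replicate numbers did not pair the mice (residual correlations of 0.04, -0.31 and -0.16), and with the replicate block Icam1 was at 2.83, Vwf at 1.41, Vcam1 at 1.08 and Pecam1 at 0.52 with no call changed. Depth limits Sele, Selp and Madcam1, which had at most 18 counts in a library.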
